A study of Mus musculus with 47 samples.

Results

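The transcripts of 10 genes known as targets of Wnt and beta-catenin signalling (Axin2, Nkd1, Notum, Wif1, Apcdd1, Sp5, Prox1, Tnfrsf19, Lef1 and Tcf7) were followed across 47 mouse T-cell lymphomas. The genes were chosen by symbol, and every probe set whose only platform symbol is one of the 10 was used, on every array. This gave 15 probe sets for 9 genes, and all 9 passed the filter on low values (Prox1 only through the beta-catenin transgenic arrays) that left 8810 tested genes of the 12393 with a probe set. No probe set carries the symbol Tcf7 in the platform table used here, so Tcf7 was not analysed here. The 9 measured genes were read as 8 targets and as Lef1, a gene that T cells also express as part of their lineage programme.

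Wnt proteins bind Frizzled and LRP receptors and halt the destruction complex, the assembly of Axin, APC and kinases that marks beta-catenin for breakdown. Stabilised beta-catenin enters the nucleus, joins the DNA-binding factors of the TCF and LEF family, and switches on target genes, several of which encode inhibitors that damp the pathway again. In the thymus, Tcf7 and Lef1 encode the TCF and LEF factors themselves and are expressed from early T-cell development onward.

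The titles name 14 genetic backgrounds. Groups of 3 tumours each carry a transgene for beta-catenin, Nup98HoxD13, ThPOK or LMO1, are double transgenic for olig1-LMO1 or for Tal1-LMO2, are p53 knockout or are Ikaros Plastic. Groups of 2 are rag E2A knockout, Pokemon transgenic, Tal1 transgenic or E2A knockout, the TLX1 transgenic group 6, and the group of Cdkn2a knockout mice with retroviral insertional mutagenesis 9. The TLX1 transgenic tumours are the only ones labelled TLX1 positive. Neither the labels nor the design text give the promoter of a transgene, the form of beta-catenin expressed, the strain or the age of the mice, and no normal thymus was included in the samples used here. Whether each tumour is from its own mouse is not stated, and p-values then measure only the spread between these samples, which may be technical. Lmo1 signals went against 2 titles: the libraries labelled olig1-LMO1 lay between 11.1 and 34.3, and the libraries labelled Nup98HoxD13 between 586 and 2526, beside 522 to 2344 in the LMO1 transgenic tumours. 4 other libraries stand apart: p53 knockout tumour 2 had 7 of 28 measured T lineage markers above its array median, and TLX1 transgenic tumours 2, 5 and 6 had 3' to 5' control ratios far above the rest.

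Each value is a deposited MAS5 signal, a linear hybridization intensity in arbitrary units, and the array medians ran from 49.6 to 106. Differences are on the scale of log2(signal + 15.9), with the standard error, which understates the change of dim genes. A gene was called at a Benjamini-Hochberg adjusted p under 0.05 in limma, and "rose", "fell", "higher" and "lower" below are used of called genes where a fitted difference is meant. The precision is limited by the number of arrays, which was 3 for the beta-catenin transgenic tumours. In RNA from whole tumours, fewer cells of a type and less RNA per cell cannot be told apart.

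Ctnnb1, which encodes beta-catenin, read 3505, 3896 and 4541 in beta-catenin transgenic tumours 1 to 3. The difference of this probe set, which stood for the gene, from the mean of the other 13 backgrounds was 0.22 ± 0.13 (limma adjusted p = 0.258), which was not called. A dimmer probe set of Ctnnb1 read 1502, 1550 and 2384 and was higher by 0.88 ± 0.29 (limma adjusted p = 0.0262 with each probe set fitted on its own). Another read 610, 741 and 1233 and differed by 0.79 ± 0.39 (limma adjusted p = 0.148). The probe sets thus disagree in the size of the Ctnnb1 difference, and the labels do not say which of them read the transgene.

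Axin2, Nkd1, Notum, Wif1, Apcdd1, Sp5 and Tnfrsf19 were all higher in the beta-catenin transgenic tumours than in the mean of the other 13 backgrounds, and Lef1 was not called. Prox1 is counted apart from these 7, because it passed the filter on low values only through the beta-catenin transgenic arrays. Of all 8810 tested genes, 11.4% were higher and 7.42% lower in the same comparison. The median difference of the 8 measured members without Prox1 was 3.03, beside 0.03 over all tested genes. Without p53 knockout tumour 2 and TLX1 transgenic tumours 2, 5 and 6, the 7 targets were again higher, by 2.41 (Axin2) to 5.45 (Wif1), and Lef1 differed by -0.59 (limma adjusted p = 0.328).

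Axin2, a scaffold of the destruction complex that serves as a feedback inhibitor and as a general readout of the pathway, read 1105, 911 and 1134.5 in the 3 beta-catenin transgenic tumours. In the other 44 tumours Axin2 had a lowest signal of 19.6, a median of 185 and a highest of 1055. The 3 tumours sat above all others but one, Cdkn2a knockout tumour 6, which held the signal of 1055. Axin2 was not silent elsewhere: 43 of the other 44 tumours had it above the median of their array. The fitted difference was 2.50 ± 0.47 (5.66-fold, limma adjusted p = 0.000197). A dimmer second probe set of Axin2 read 165, 116 and 202 in the same tumours and differed by 2.00 ± 0.31, with no overlap: the highest other tumour read 103.

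Nkd1, which binds Dishevelled and restrains Wnt signalling inside the cell, read 235, 473 and 627 in the beta-catenin transgenic tumours. The other 44 tumours ran from 3.91 to 423 with a median of 35.7. Cdkn2a knockout tumours 6, 4 and 2 and ThPOK transgenic tumour 1 exceeded the lowest beta-catenin transgenic tumour. The difference was 2.86 ± 0.55 (limma adjusted p = 0.000318).

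Notum, a secreted enzyme that strips the lipid from Wnt proteins, read 89.1, 415 and 468. Beta-catenin transgenic tumour 1 was dim, and Cdkn2a knockout tumour 2, at 114, lay above it. The remaining tumours outside this background were at or below 86.4, and the median of the other 44 was 30.1. Notum was above the array median in only 3 of those 44, and its difference was 2.72 ± 0.34 (limma adjusted p = 4.73e-07).

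Wif1, a secreted protein that binds Wnt ligands, read 1866, 998 and 954 in the beta-catenin transgenic tumours. The other 44 tumours had a lowest signal of 0.241, a median of 6.14 and a highest of 709. The 3 beta-catenin transgenic tumours did not overlap with any other tumour, of which the nearest was ThPOK transgenic tumour 1. The difference was 5.44 ± 0.71 (limma adjusted p = 1.19e-06), but most other tumours were far under their array medians, and its size ran from 3.81 to 7.27 under the other settings tried, mainly with the pseudocount.

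Apcdd1, a membrane protein that inhibits Wnt signalling at the cell surface, read 1506, 1247 and 3008. The other 44 tumours ran from 0.601 to 1652 with a median of 46.1, and Cdkn2a knockout tumour 6 was the one that reached into the beta-catenin range. Apcdd1 differed by 4.74 ± 0.83 (limma adjusted p = 9.3e-05). Its other 3 probe sets differed by 4.32, 4.64 and 4.63, and on each of them the 3 beta-catenin transgenic tumours lay above all other tumours.

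**Figure D1:**
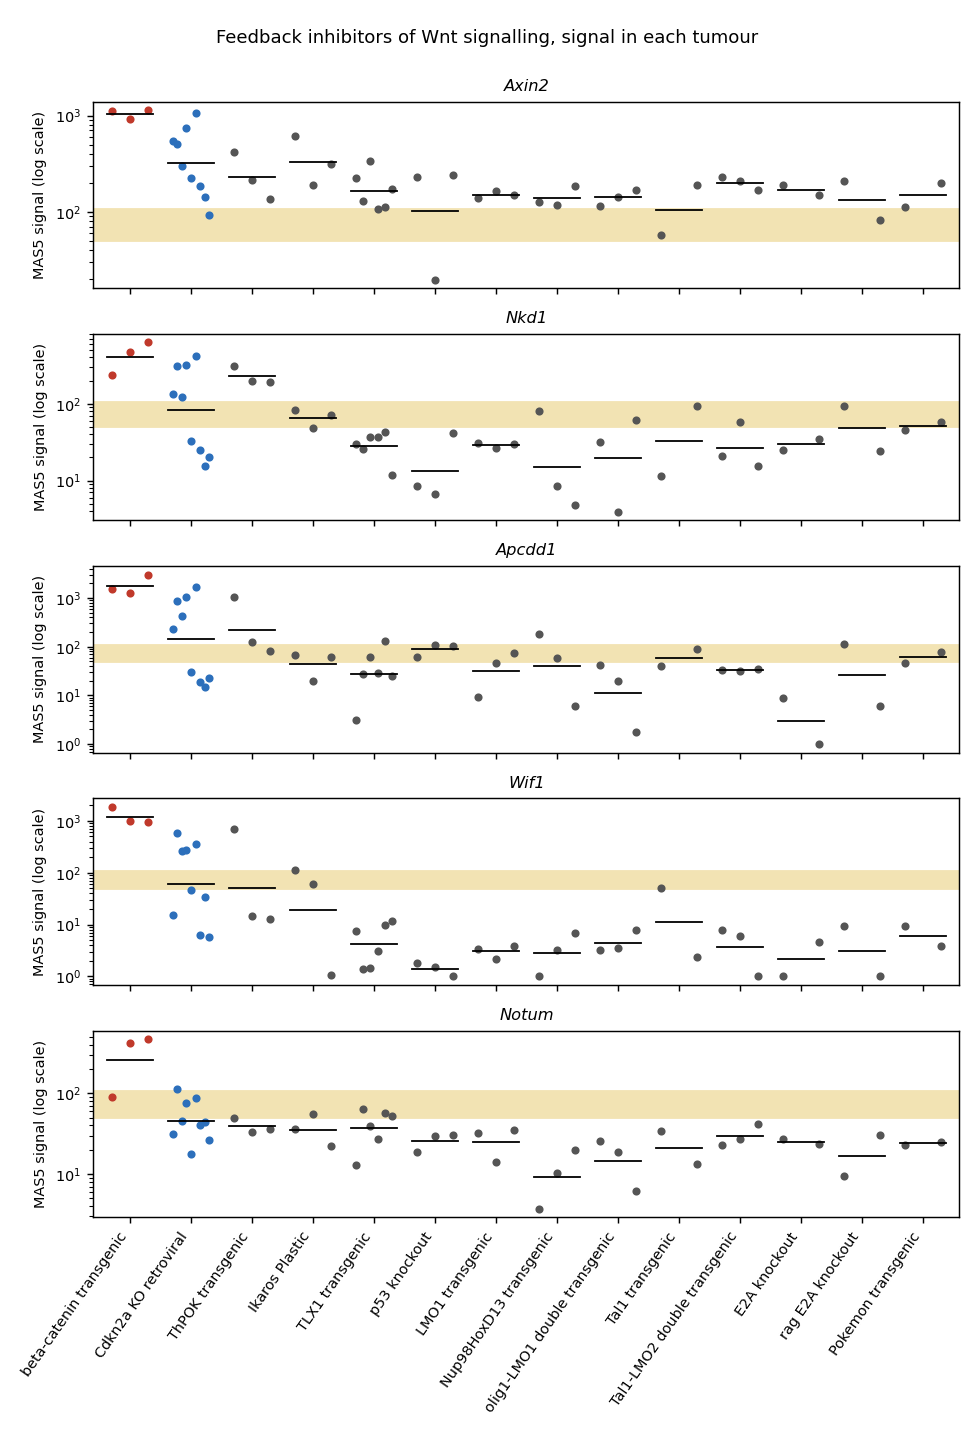
Signals of Axin2, Nkd1, Notum, Wif1 and Apcdd1 in each of the 47 tumours, by titled background, on a log axis in MAS5 units. Each point is a tumour (signals under 1 are drawn at 1), the bar is the geometric mean of the drawn values, the band is the range of array medians, red marks beta-catenin transgenic and blue Cdkn2a knockout tumours. The highest points are red except that blue points exceed some red ones in Axin2, Nkd1, Notum and Apcdd1. In Nkd1 the point of ThPOK transgenic tumour 1 also exceeds a red one. In Wif1 all 3 red points lie above every other point.

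Sp5, a zinc finger transcription factor induced by beta-catenin in many tissues, read 430, 293 and 176 in the beta-catenin transgenic tumours. The median of the other 44 was 4.57, far below the array medians, and the highest was 371. Cdkn2a knockout tumours 2 and 6 lay above the lowest beta-catenin transgenic tumour, and 3 of the 44 were above their array median. The difference was 3.67 ± 0.54 (limma adjusted p = 6.84e-06), and its size ran from 2.13 to 5.43 under the other settings tried.

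Prox1, a homeodomain factor best known for specifying lymphatic endothelium and a beta-catenin target in colorectal cancer, read 82.7, 348 and 286. The other 44 tumours ran from 0.367 to 225 with a median of 12.3, and Cdkn2a knockout tumour 2 was the only one above beta-catenin transgenic tumour 1. Prox1 exceeded the array median in 2 of the 3 beta-catenin transgenic tumours and in 1 of the other 44, so it would not have passed the filter without the group where it is high, and the filtered fit is no test of it. In the fit with no filter on low values its difference was 3.03 ± 0.39 (limma adjusted p = 1.23e-06), with sizes from 1.76 to 4.34 under the other settings that gave a value. Of the 4 lymphatic endothelial markers measured, Lyve1 (26.7 to 66.2), Flt4 (32.0 to 69.4) and Reln (60.0 to 75.6) were below the array median in the same 3 tumours. The fourth, Pdpn, read 102, 53.6 and 126 and was above it in 2 of them. Medians in the other 44 were 39.0 for Lyve1, 35.3 for Flt4, 33.0 for Reln and 101 for Pdpn. Reln was thus above its median in all 3 beta-catenin transgenic tumours. The summed signal of the 4 markers was 222 to 321, beside 46.8 to 4508 with a median of 217 in the other 44.

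Tnfrsf19, a member of the TNF receptor superfamily also known as Troy, read 257, 1014 and 296. The other 44 tumours ran from 0.922 to 272 with a median of 26.8. Beta-catenin transgenic tumour 2 stood well above the other two, and Cdkn2a knockout tumour 6, at 272, passed tumour 1. The difference was 3.20 ± 0.62 (limma adjusted p = 0.000318). Another probe set of Tnfrsf19 differed by 1.66 ± 0.39, and on it 5 of the other 44 tumours lay above the lowest beta-catenin transgenic tumour. The third did not pass the filter. On each of these dimmer probe sets, 1 of the 3 beta-catenin transgenic tumours was above its array median.

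The bases upstream of the RefSeq start sites were searched for the letters of a TCF and LEF site, CTTTGAT or CTTTGAA, on both strands. The table of promoters holds 14 windows for 8 of the 10 genes, and 2 of the 14 held such a match, 1 of Sp5 and 1 of Tnfrsf19. Over all 32851 windows of the same 250 bases, 7.48% held a match to either, 3.21% to CTTTGAT and 4.46% to CTTTGAA. The windows of Sp5 and of the second Tnfrsf19 start are shown because they hold the match, which is in capitals, and those of Axin2 and Wif1, the general readout and the target with the largest difference, for comparison. All are RefSeq sequence of build GRCm38.p6, written in the direction of the gene. The match in Sp5 (chr2:70474673-70474922, plus strand) starts at position -104 from the start site. The match in Tnfrsf19 (chr14:61037988-61038237, minus strand) starts at position -202 and reads as the reverse complement, ATCAAAG. The windows of Axin2 (chr11:108920099-108920348, plus strand) and Wif1 (chr10:121033754-121034003, plus strand) hold none of these letters, which says nothing of the sites beyond them.
Sp5: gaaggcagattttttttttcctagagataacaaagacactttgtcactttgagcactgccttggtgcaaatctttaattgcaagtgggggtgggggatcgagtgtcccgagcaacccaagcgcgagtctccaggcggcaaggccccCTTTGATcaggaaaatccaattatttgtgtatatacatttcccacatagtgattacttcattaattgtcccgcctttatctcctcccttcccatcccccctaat
Tnfrsf19: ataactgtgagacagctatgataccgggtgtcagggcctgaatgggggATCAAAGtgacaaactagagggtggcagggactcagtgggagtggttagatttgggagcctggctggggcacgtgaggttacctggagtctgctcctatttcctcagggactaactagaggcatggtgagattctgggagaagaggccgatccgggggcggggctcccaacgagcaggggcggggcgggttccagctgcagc
Axin2: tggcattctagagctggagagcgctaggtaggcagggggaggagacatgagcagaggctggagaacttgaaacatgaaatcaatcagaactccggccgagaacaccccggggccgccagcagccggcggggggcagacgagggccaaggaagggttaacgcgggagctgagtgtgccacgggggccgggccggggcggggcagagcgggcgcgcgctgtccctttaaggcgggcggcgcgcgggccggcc
Wif1: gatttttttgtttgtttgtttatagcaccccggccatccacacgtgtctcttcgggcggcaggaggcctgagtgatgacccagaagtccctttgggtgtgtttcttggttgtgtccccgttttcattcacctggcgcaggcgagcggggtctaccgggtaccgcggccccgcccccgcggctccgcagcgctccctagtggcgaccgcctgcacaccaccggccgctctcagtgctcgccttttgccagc

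**Figure D2:**
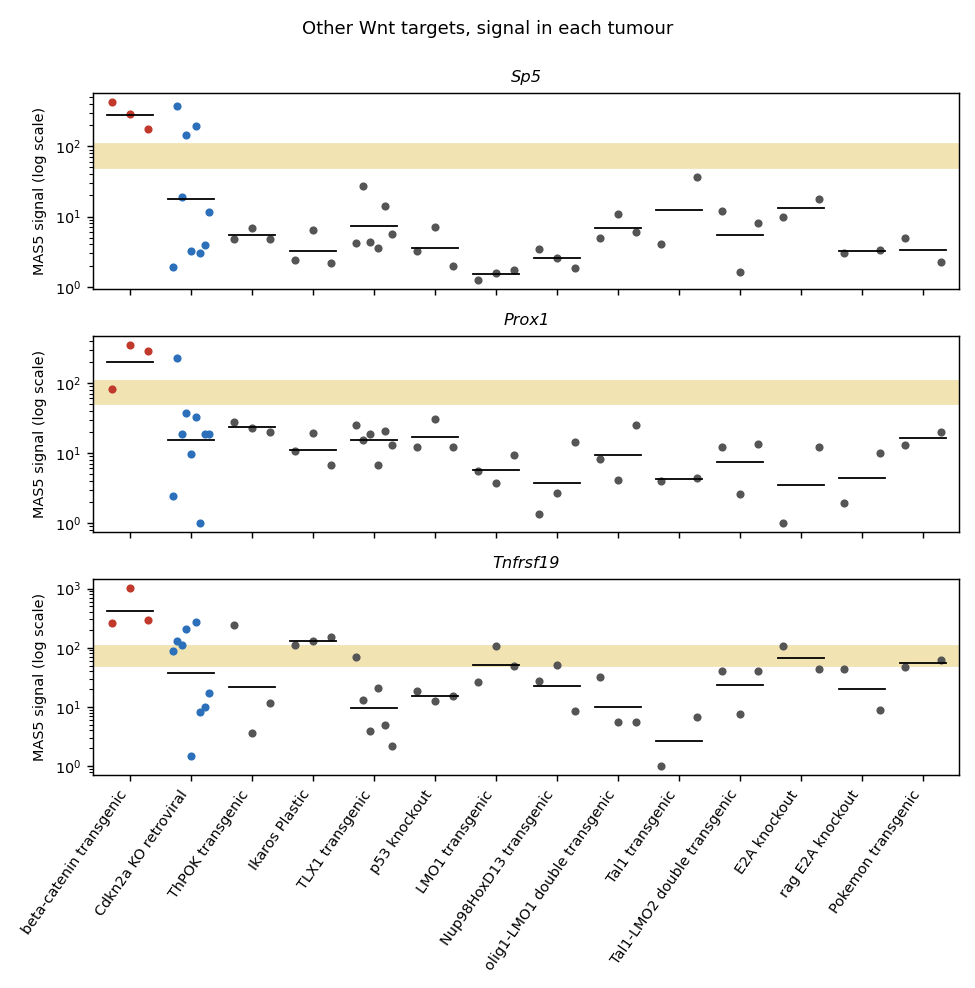
Signals of Sp5, Prox1 and Tnfrsf19 in each of the 47 tumours, by titled background, on a log axis in MAS5 units. Points, bars, band and colours stand for tumours, geometric means of the drawn values, the range of array medians, beta-catenin transgenic (red) and Cdkn2a knockout (blue) tumours, and signals under 1 are drawn at 1. Most tumours of the other backgrounds lie under the band for Sp5 and Prox1.

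Lef1, which encodes a DNA-binding partner of beta-catenin, was not called. Its signals in the beta-catenin transgenic tumours were 374, 399 and 792, inside the range of the other 44 (16.5 to 2163, median 617), of which 29 exceeded the lowest of the 3. Lef1 was above the array median in 42 of the other 44 tumours. The difference of -0.42 ± 0.55 (limma adjusted p = 0.650) had a 95% confidence interval from -1.54 to 0.69, so a moderate difference either way is not excluded by these arrays.

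The background means of Lef1 were highest in the rag E2A knockout (10.75 ± 0.48 SD, n = 2), Ikaros Plastic (10.50 ± 0.66 SD, n = 3) and Tal1-LMO2 (10.33 ± 0.61 SD, n = 3) tumours, on the log2 scale. These neighbours lie within each other's spread. The beta-catenin transgenic tumours ranked 10 of 14 at 8.99 ± 0.58 (SD, n = 3). Lowest were Cdkn2a knockout (8.25 ± 0.43 SD, n = 9), TLX1 transgenic (7.24 ± 1.44 SD, n = 6) and p53 knockout tumours (7.17 ± 2.23 SD, n = 3), and the last 2 hold a wide range. For Axin2 the order was different: beta-catenin transgenic tumours came first at 10.05 ± 0.17 (SD, n = 3), then Ikaros Plastic at 8.45 ± 0.82 (SD, n = 3), Cdkn2a knockout at 8.41 ± 1.10 (SD, n = 9) and ThPOK transgenic at 7.96 ± 0.76 (SD, n = 3), the last 3 within each other's spread.

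Within each tumour, log2 Axin2 minus log2 Lef1 averaged 1.06 in the beta-catenin transgenic tumours and -1.36 in the other 44. The difference between those means was 2.43 (exact two-sided permutation p = 0.0117 over 16215 choices of 3 tumours). This test treats single tumours as exchangeable, although they are grouped in backgrounds that differ. Medians of the other backgrounds ran from -3.53 (rag E2A knockout) to 0.50 (TLX1 transgenic). The p-value may therefore be too small for a comparison of backgrounds. The values overlapped, with 0.51 to 1.52 in the 3 tumours and -3.79 to 2.47 in the others. Without beta-catenin transgenic tumour 1 the difference was 2.20 (exact permutation p = 0.0599). A comparison of 2 probe sets shows an unequal change, not the level of one gene against the other.

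**Figure D3:**
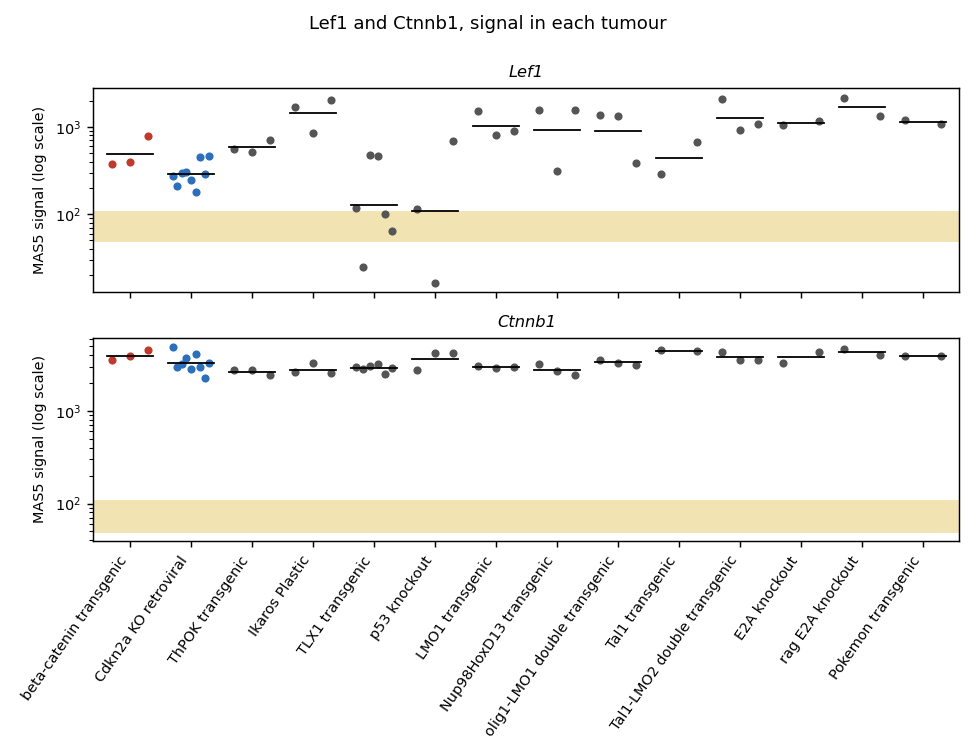
Signals of Lef1 and Ctnnb1 in each of the 47 tumours, by titled background, on a log axis in MAS5 units. Points are tumours, bars geometric means, and the band the range of array medians. The red beta-catenin transgenic points lie inside the range of the other tumours for both genes, and the p53 knockout and TLX1 transgenic points of Lef1 are spread widely.

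Set against each of the other 13 backgrounds in turn, the 7 targets without Prox1 were higher in the beta-catenin transgenic tumours in 82 of 91 pairs of target and background. The 13 comparisons share the same 3 tumours and are not independent. All 7 were higher against 8 backgrounds: LMO1 (where 6.96% of all tested genes were higher), Nup98HoxD13 (7.23%), olig1-LMO1 (7.00%), p53 knockout (10.9%), rag E2A knockout (9.60%), Tal1 (9.76%), Tal1-LMO2 (12.7%) and TLX1 (13.8%). Against E2A knockout (10%) and Pokemon (6.04%) tumours 6 of 7 were higher, and Tnfrsf19 was not called. Against ThPOK tumours (6.22%) 5 were higher, without Nkd1 and Apcdd1. Against Cdkn2a knockout tumours (2.41%) 5 were higher, without Axin2 and Nkd1. Against Ikaros Plastic tumours (2.33%) 4 were higher, without Axin2, Nkd1 and Tnfrsf19.

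Notum, Wif1 and Sp5 were higher than in every one of the 13 backgrounds. Their smallest differences were 2.14 for Notum, 3.65 for Wif1 and 2.61 for Sp5. The 13 differences of Prox1 ran from 2.49 to 3.46 and are given as values only. Apcdd1 was higher than in 12, with differences from 2.88 to 6.47, and Axin2 than in 11, from 1.60 to 3.11. Nkd1 (0.81 to 3.76) and Tnfrsf19 (1.59 to 4.50) were each higher than in 10. Lef1 ran from -1.76 against rag E2A knockout to 1.81 against p53 knockout (limma adjusted p = 0.0782), and it was called higher in 1 of 13 comparisons, against TLX1 transgenic tumours (1.75 ± 0.65, limma adjusted p = 0.0400).

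**Figure D4:**
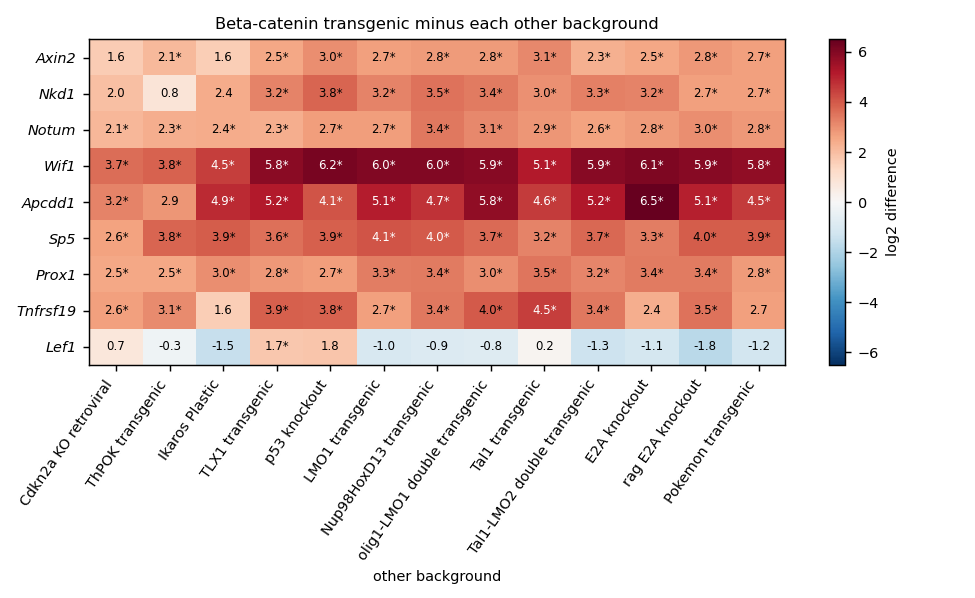
Log2 difference of each measured member between the beta-catenin transgenic tumours and each of the other 13 backgrounds, as a grid of colours and values, with an asterisk where limma's adjusted p was under 0.05. The 7 target rows other than Prox1 carry 82 asterisks of 91, and the Lef1 row carries 1 of 13.

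Among the other backgrounds, each set against the mean of the remaining 13 (which includes the beta-catenin transgenic tumours), 6 member calls were made. Cdkn2a knockout tumours were higher in Wif1 (1.51 ± 0.44, limma adjusted p = 0.00883) and Sp5 (0.87 ± 0.33, limma adjusted p = 0.0448), where 16.1% of all tested genes were higher. ThPOK transgenic tumours were higher in Nkd1 (1.98 ± 0.55, limma adjusted p = 0.0168), where 6.61% were higher. The Sp5 call was lost without Cdkn2a knockout tumour 2 (0.50), 4 (0.65) or 6 (0.61), and the Nkd1 call was lost without any 1 of the 3 ThPOK transgenic tumours (1.77 to 2.10, adjusted p 0.0686 to 0.119).

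Lef1 was lower in Cdkn2a knockout (-1.22 ± 0.34, limma adjusted p = 0.00654), TLX1 transgenic (-2.31 ± 0.40, limma adjusted p = 5.12e-05) and p53 knockout tumours (-2.38 ± 0.55, limma adjusted p = 0.00232). The shares of all tested genes lower in these backgrounds were 14.6%, 12.5% and 9.34%. The 9 Cdkn2a knockout tumours had Lef1 between 177 and 468. The p53 knockout tumours read 115, 16.5 and 693, and without tumour 2, the lowest, the difference was -1.30 (limma adjusted p = 0.187). Tumour 2 was the one with 7 of 28 T lineage markers above the array median, and the part of its low T lineage signals in this result was not tested.

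TLX1 transgenic tumours 1 to 6 read 116, 24.7, 476, 466, 101 and 63.8 for Lef1, so tumours 3 and 4 were clearly higher than the rest. The log2 ratio of the 3' to the 5' Gapdh control probe set, a sign of RNA quality, was 0.27, 2.86, 0.49, 0.29, 2.37 and 1.87 in the same order, and -0.53 to 0.71 in the other 41 tumours. Without TLX1 transgenic tumours 2, 5 and 6 the Lef1 difference was -1.25 (limma adjusted p = 0.0992). The part of RNA quality in the Lef1 level was not tested. In the beta-catenin transgenic tumours the same ratio was -0.46 to -0.39.

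No member was called in the remaining 9 backgrounds. The shares of all tested genes called in either direction there were 4.34% for E2A knockout, 22.8% for Ikaros Plastic, 1.03% for LMO1, 3.01% for the labelled Nup98HoxD13, 0.658% for the labelled olig1-LMO1, 0.953% for Pokemon, 1.56% for rag E2A knockout, 4.96% for Tal1 and 6.67% for Tal1-LMO2. Ikaros Plastic tumours had Axin2 at 620, 188 and 316, beside a median of 185 in the 44 tumours outside the beta-catenin transgenic group. Axin2 in tumour 2 was thus close to that median. Tnfrsf19 was 113, 132 and 151 in the Ikaros Plastic tumours, beside a median of 26.8 in the same 44.

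The number of targets with a signal above the array median varied most among the 9 Cdkn2a knockout tumours. Of the 8 targets, 7, 8 and 8 were above the array median in beta-catenin transgenic tumours 1 to 3. In Cdkn2a knockout tumours 1 to 9 the numbers were 4, 8, 5, 7, 1, 7, 1, 1 and 1. Tumours 2, 4 and 6 therefore had nearly the whole set, tumours 1 and 3 part of it, and tumours 5, 7, 8 and 9 had Axin2 alone. ThPOK transgenic tumours had 5, 3 and 3, and all tumours of the other 11 backgrounds had 1 to 3.

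Tumours 2, 4 and 6 were not alike in every target. Cdkn2a knockout tumour 6 had the most Axin2 (1055), Nkd1 (423), Apcdd1 (1652) and Tnfrsf19 (272) of the 9. Tumour 2 had the most Wif1 (585), Sp5 (371), Notum (114) and Prox1 (225), with Axin2 at 506. Tumour 4 lay between them in several targets, with Axin2 at 736, Nkd1 at 318, Apcdd1 at 1031 and Prox1 at 37.3. It lay below both in Sp5, at 145, Wif1, at 277, and Notum, at 76.2. In tumours 7, 8 and 9, Axin2 was 185, 141 and 92.8 and Nkd1 was 25.3 or lower. Lef1 did not follow this order: tumours 9 and 7 had the most Lef1 (468 and 452) and tumours 2 and 6 the least (212 and 177).

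Cdkn2a knockout tumour 3 and ThPOK transgenic tumour 1 had the same 5 targets above the array median. ThPOK transgenic tumour 1 had Wif1 at 709, Apcdd1 at 1038, Nkd1 at 313, Axin2 at 419 and Tnfrsf19 at 245. In it Sp5 was 4.82, Prox1 28.0 and Notum 49.2. Its 2 group mates kept Nkd1 at 196 and 192, but their Wif1 was 14.6 and 12.8 and their Tnfrsf19 3.57 and 11.8. These are single tumours, with no test.

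**Figure D5:**
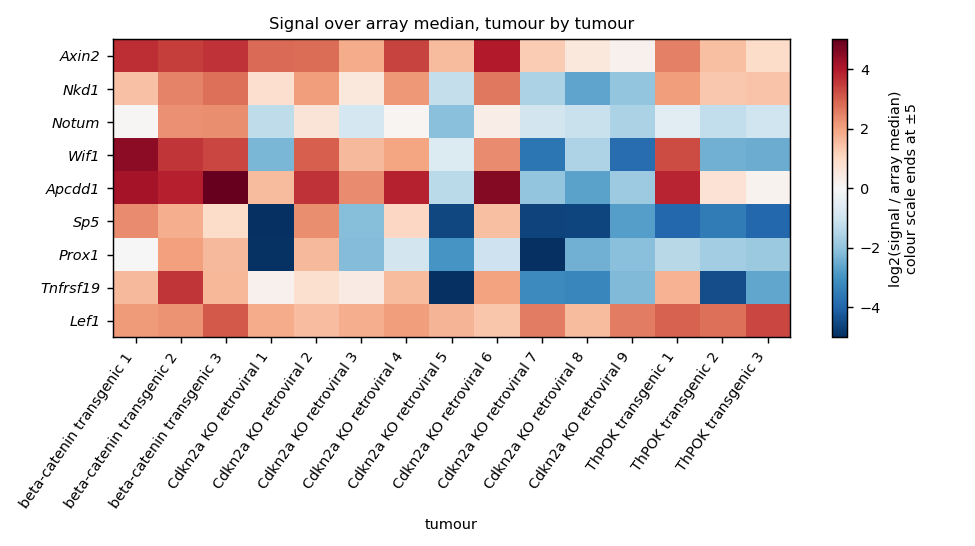
Level of each measured member as log2 of the signal over the array median, with the colour scale cut off at both ends. The columns are the 3 beta-catenin transgenic, 9 Cdkn2a knockout and 3 ThPOK transgenic tumours, and the other backgrounds are not drawn. The 3 beta-catenin transgenic columns and Cdkn2a knockout tumours 2, 4 and 6 hold the largest number of targets above the array median, and the Lef1 row is above it in every column drawn.

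Other genes of the Wnt pathway were counted by list, and each count of few genes stands beside the 11.4% higher and 7.42% lower among all tested genes. Of genes with a probe set, the filter on low values left 6 of 23 ligands, 9 of 18 receptors and 4 of 12 inhibitors. It left 14 of 31 other Wnt targets. Which listed genes passed only through the beta-catenin transgenic arrays was not examined, so the counts of dim genes are no test. Of 6 tested Wnt ligand genes, 2 were higher in the beta-catenin transgenic tumours: Wnt6 (1.84 ± 0.36) and Wnt7b (1.37 ± 0.25), with a list median of 0.08. Of 9 tested receptor genes 1 was higher, a share near that of all tested genes: Lgr6, a receptor for R-spondins (1.17 ± 0.22). Of 4 tested secreted or surface inhibitors outside the members, Sfrp1, which binds Wnt proteins (1.32 ± 0.29), and Kremen1, a receptor for Dickkopf proteins (0.85 ± 0.23), were higher. In the destruction complex list, which includes Ctnnb1, 0 of 11 were higher and 1 was lower, Fbxw11, part of the ubiquitin ligase that takes up marked beta-catenin (-0.49 ± 0.15).

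Of 14 tested nuclear cofactors, 2 were higher, the corepressor Tle4 (1.96 ± 0.44) and Cdc73 (0.41 ± 0.14), and 2 were lower, the beta-catenin antagonist Cby1 (-1.28 ± 0.24) and the coactivator Crebbp (-0.63 ± 0.18). These shares of the cofactors lie near those of all tested genes. Of 14 other genes known as Wnt targets, 2 were higher, the TGF-beta pseudoreceptor Bambi (1.85 ± 0.48) and the urokinase receptor Plaur (1.43 ± 0.38), and Id2, an inhibitor of E proteins, was lower (-1.44 ± 0.48). The median difference of those 14 genes was 0.02. Myc, a Wnt target in the gut, read 1866, 1703 and 1220 and differed by 0.71 ± 0.30 (limma adjusted p = 0.0961), which was not called.

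Of the 28 measured T lineage markers, 25, 24 and 25 were above the array median in beta-catenin transgenic tumours 1 to 3. Their sum was 31867 to 40734 there, beside 5527 (a p53 knockout tumour) to 61580 with a median of 38580 in the other 44. Of these markers 4 were higher and 3 lower, among them Cd4 (2.31 ± 0.58) and the transcription factor Ets1 (0.75 ± 0.18), higher, and Notch1 (-4.09 ± 0.65) and Ptcra (-3.67 ± 0.95), genes of early T-cell development, lower. These counts are near the 11.4% and 7.42% of all tested genes. The sizes stand out more: the Notch1 difference was the most negative of all tested genes, and Ptcra ranked 16 by size in either direction.

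Markers of other cell types were counted in the same way. Of 6 tested B cell markers 4 were higher, including Ms4a1 (2.53 ± 0.52) and Cd79a (2.19 ± 0.51). The list median was 2.16, beside 0.03 over all tested genes. The summed signal of the list was 6508 to 9003, beside 189 to 18660 with a median of 2480 in the other 44. Of the 9 measured B cell markers, 4 to 6 were above the array median in each of the 3 tumours. Ebf1 read 32.1, 20.8 and 8.14 and Pax5 25.2, 8.03 and 8.72, all under the array medians. Their medians in the other 44 were 17.9 and 5.54, and Pax5 was at or below 41.4 there, under every array median. Of 15 myeloid markers 2 were higher, Itgam (4.00 ± 0.52) and Lyz2 (1.42 ± 0.30), a count near the 11.4% of all tested genes. The differences of all 15 were positive, from 0.02 to 4.00 with a median of 0.92. Their sum was 6774 to 11720, beside 1070 to 73770 with a median of 4684 in the other 44. Of 11 tested endothelial markers 1 was lower, Vwf (-1.15 ± 0.37), and the sum was 774 to 846, beside 299 to 21060 with a median of 896 in the other 44. None of 4 lymphatic endothelial, 11 stromal, 9 thymic epithelial and 4 erythroid markers tested was called. The part of B cell or myeloid RNA in the target levels was not tested.

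Across the 14 background means, the genes most like Axin2 by Pearson correlation were Lratd1 (r = 0.939), Erc1 (0.930), Cwh43 (0.929), Chst2 (0.927) and P2rx7 (0.927). Among the members, Wif1 ranked 6 of all tested genes in likeness to Axin2, Notum 9, Tnfrsf19 27, Prox1 36, Nkd1 89, Sp5 91 and Apcdd1 206. Lef1 ranked 4974 with r = -0.02. These correlations share the 3 beta-catenin transgenic tumours, which are extreme in most of these genes. Over the 13 other background means the members ranked further down: Wif1 155, Tnfrsf19 218, Notum 237, Nkd1 486, Prox1 982, Apcdd1 2034, Sp5 2188 and Lef1 4015. Over the 44 tumours of the other backgrounds taken singly, Nkd1 ranked 4 (r = 0.686), Wif1 21 (0.615), Tnfrsf19 22 (0.612), Apcdd1 40 (0.575) and Sp5 179 (0.482), while Notum (rank 605), Prox1 (1118) and Lef1 (3201) were further down. The genes most like Lef1 across backgrounds were Tnfrsf8 (0.885), Azi2 (0.862), Gabarapl2 (0.853), Prps2 (0.844) and Galnt6 (0.834), and none of the members was among them.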

How the data were processed

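RNA from 47 mouse T-cell lymphomas was measured on Affymetrix arrays. The values that the authors deposited are linear signal intensities, 1 per probe set and array, and the submitters' processing notes name MAS5. Its version and scaling target are not given in these sources. Of 22690 probe sets, 64 controls were set aside, 691 with several platform symbols and 1555 with none were left out, and 20380 with 1 symbol were used. Probe sets had to exceed the array median in at least 2 arrays, and the one of highest mean log2 value stood for its gene. The pseudocount of 15.9 added before log2 was the 25th percentile over all arrays.

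Limma 3.58.1 in R 4.3.3 (lmFit, eBayes with a trend) fitted 14 background means over all 47 tumours, with Benjamini-Hochberg adjustment over 8810 genes, and was tested on simulated data. Exact two-sided permutation tests over tumours ran in Python 3.11.15. The members and gene lists were chosen with earlier results of these data known. Named genes were all members, Ctnnb1, Myc, up to 4 called genes of lowest p per list, and the 5 genes most like Axin2 and Lef1. Lmo1 and the Gapdh control probe sets were checks of labels and RNA quality, and Lyve1, Flt4, Reln, Pdpn, Ebf1 and Pax5 were named after their values were seen. Alternatives were another pseudocount, filter, normalization, probe set rule and design, and leaving out single tumours.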

Additional observations from a re-analysis of the deposited data

Results flagged for a closer look

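Prox1 in Cdkn2a knockout tumour 2 had a signal of 225, the highest of the 9 tumours of that group. Its gap to the nearest other tumour was 0.567 of the range of the group, above Dixon's 95% critical value for 9 samples. It was the only such sample among 18 groups of 6 or 9 tumours examined for the 9 measured members, and chance alone gives about 1 in 20 groups. The same tumour also had the most Wif1, Sp5 and Notum of the group.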

How the results depend on the processing

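The 7 targets other than Prox1 stayed higher in the beta-catenin transgenic tumours in every alternative and in all 47 fits without 1 tumour, and Lef1 was not called in any of them. Their sizes moved with the pseudocount: Wif1 ran from 3.81 to 7.27 and Sp5 from 2.13 to 5.43. With each probe set fitted on its own, a Ctnnb1 probe set that the gene rule left aside was called (0.88). The other one left aside was not (0.79, limma adjusted p = 0.148). The number of genes called in this comparison, 1657, became 2917 with each probe set fitted on its own, 3281 with array weights and 337 with the 44 other tumours weighted alike, and ran from 709 to 1933 without 1 tumour (913, 933 and 709 without beta-catenin transgenic tumours 1, 2 and 3). The 6 member calls in the other backgrounds became 11 with the title number as a replicate block and 11 with array weights, and ran from 4 to 9 without 1 tumour. The 96 pairwise calls of members, Prox1 included, ran from 81 to 105 in other settings and from 86 to 99 without 1 tumour. Axin2 minus Lef1 ran from 2.20 to 2.71 without 1 tumour. The cause of these shifts was not tested. Sp5 in Cdkn2a knockout tumours lost its call in 4 of 12 settings and 15 of 47 fits without 1 tumour. No direction turned. The labels do not say that title numbers pair tumours, and the mean correlation of deviations between tumours of the same number was -0.00135 over 230 pairs. The replicate block gave 1648 calls in the beta-catenin comparison. Axin2 minus Tcf7 was not run because no probe set is named Tcf7 here, and Prox1 had no value with a filter of 6 arrays. Dim genes such as Sp5 and Prox1 lie under the array medians in most tumours, so their folds depend on the pseudocount.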
